A study of Mus musculus with 24 samples.

Results

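The Bcl2 family was followed through 10 genes: the anti-apoptotic Mcl1, Bcl2 and Bcl2l1, the effectors Bax, Bak1 and Bok, and the BH3-only genes Bad, Bid, Bik and Bcl2l11. They were taken by gene symbol from the deposited tables, and all 10 had a row among the 37229 genes counted. A filter on low counts kept 15875 genes and 9 of the 10 members, the exception being Bcl2. The same 9 were listed in the deposited table of TPM, a level corrected for transcript length. RNA was measured by Smart-seq2 in 24 single mouse embryos of the ICR stock, all made by in vitro fertilization. Controls were intact embryos, with 4 at the 8-cell stage, 5 morulae and 3 blastocysts. Split embryos came from late two-cell embryos that were placed in G-PGD biopsy medium and parted into single blastomeres with a micromanipulator, after which each blastomere grew by itself in a modified sodium hyaluronate gel. There were 3 sister pairs of split morulae and 3 of split blastocysts. The labels name the gel for split embryos and matched culture for the controls, so blastomere separation and growth as a single blastomere in gel cannot be told apart here.

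Bcl2 family proteins decide whether the outer mitochondrial membrane stays closed. Bax, Bak1 and Bok can open it, which releases cytochrome c and starts the caspases, whereas Mcl1, Bcl2 and Bcl2l1 (Bcl-xL) hold the effectors back. BH3-only proteins sense stress and act on both sides, Bid and Bcl2l11 (Bim) by binding effectors as well as guardians, and Bad by occupying Bcl2 and Bcl-xL. A share of cells in the healthy mouse blastocyst dies by apoptosis, and embryos that lack Mcl1 fail around implantation. Much of the family is controlled after transcription, and only polyadenylated RNA was measured here.

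The start regions of Bax and Mcl1 are shown because these genes made up most of the family's RNA and ran in opposite directions over the groups, and that of Bcl2l11 because it had the largest change that passed the test. RefSeq (build GRCm38.p6) listed start sites for 9 of the 10 members. The 250 bases before a start site were searched on both strands for 7 motifs, and capitals mark the matches. Bax lies on the minus strand (chr7:45466899-45467148), Mcl1 on the plus strand (chr3:95658471-95658720), and the first listed start of Bcl2l11 on the plus strand (chr2:128125788-128126037).
Bax: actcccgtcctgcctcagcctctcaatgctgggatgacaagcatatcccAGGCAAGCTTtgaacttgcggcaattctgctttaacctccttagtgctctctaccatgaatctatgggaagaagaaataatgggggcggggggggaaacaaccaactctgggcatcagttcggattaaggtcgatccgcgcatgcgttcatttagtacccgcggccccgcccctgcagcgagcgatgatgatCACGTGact
Mcl1: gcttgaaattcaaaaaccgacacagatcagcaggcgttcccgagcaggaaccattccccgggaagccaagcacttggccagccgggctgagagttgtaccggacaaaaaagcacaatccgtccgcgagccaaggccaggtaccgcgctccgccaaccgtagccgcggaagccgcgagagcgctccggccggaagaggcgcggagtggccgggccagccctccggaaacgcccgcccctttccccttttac
Bcl2l11: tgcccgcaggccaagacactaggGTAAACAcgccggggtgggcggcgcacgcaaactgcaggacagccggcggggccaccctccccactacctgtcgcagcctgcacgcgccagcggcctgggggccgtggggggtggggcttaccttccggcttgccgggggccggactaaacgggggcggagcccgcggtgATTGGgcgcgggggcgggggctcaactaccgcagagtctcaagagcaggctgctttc
Bax held a p53 half-site 201 to 192 bases before its start and the E-box CACGTG at 9 to 4 bases. Bcl2l11 held the forkhead motif TGTTTAC, read on the opposite strand, at 227 to 221 bases, and a CCAAT box, also reversed, at 57 to 53 bases. The Mcl1 window had no match to any of the 7. Of 32851 mouse windows of this length, 7.13% held the p53 half-site, 6.02% CACGTG, 3.17% TGTTTAC and 33.8% CCAAT. The other motifs were TGACGTCA (1.55% of windows), TGACGT, which lies inside it (6.47%), and TATAAA (12.4%). These matches describe letters in the reference, and binding was not measured.

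Libraries held 11316911 to 38514899 counted reads, deepest in 8-cell embryos (26282853 or more) and shallowest in control blastocysts (12653788 or fewer). The reads of both sisters of a pair were summed, so a pair stood as 1 value beside each control embryo, and a pair value averages 2 embryos where a control value rests on 1. Thinned to 11316911 reads, control morulae showed 12601 ± 326 genes (SD, n = 5 embryos) and split morulae 10842 ± 600 (n = 6), while control blastocysts showed 14288 ± 777 (n = 3) and split blastocysts 13122 ± 765 (n = 6). The mitochondrial share of reads was 3.99% ± 0.85 and 2.59% ± 0.50 in control and split morulae, and 4.2% ± 0.69 and 1.70% ± 0.57 in control and split blastocysts. Fewer genes and a lower mitochondrial share therefore went with the split groups, and their part in the results below was not tested. The summed level of 7 trophectoderm markers ran from 3.72 to 33.2 CPM (read counts scaled to a common library size) in 8-cell embryos, where Gata2 was at 0. It was 481 to 957 in control morulae, 193 to 2340 in split morulae, 1900 to 2940 in control blastocysts and 4170 to 6310 in split blastocysts. The 6 epiblast markers summed to 301 to 467 CPM in control and 271 to 442 in split blastocysts. The 5 primitive endoderm markers summed to 140 to 204 CPM in control and 67.8 to 133 in split blastocysts. Of these, Sox7 was at 0 in every group. Among markers of other cells, Fshr and Foxl2 (granulosa), Ptprc (blood), Tnp1 (sperm) and Col3a1 (fibroblast) were at 0 in every group. Other genes of each list had reads, with 3 to 5 of 10 granulosa and 2 to 4 of 6 blood markers above 0 per group. The granulosa sum reached 56.5 and the blood sum 170 CPM, both in split morulae, beside 22.8 and 21.6 in control morulae. The sperm and fibroblast sums reached at most 5.80 and 9.24 CPM. All 8 oocyte markers had reads in 8-cell embryos, at sums of 18.1 to 69.3 CPM. In whole embryos, fewer cells of a type and less RNA per cell cannot be told apart.

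Per length, Mcl1 and Bax had the highest means of the family in all 5 groups. Mean TPM of Mcl1 was 237 ± 32.3 in control 8-cell embryos (SD, n = 4), 147 ± 11.2 in control morulae (n = 5), 127 ± 30.0 in control blastocysts (n = 3), 130 ± 38.4 in split morulae (n = 3 pairs) and 64.4 ± 16.8 in split blastocysts (n = 3 pairs). Mean TPM of Bax in the same order was 98.6 ± 36.1, 154 ± 17.2, 213 ± 68.6, 222 ± 25.0 and 345 ± 52.2. Mcl1 was thus highest in 8-cell embryos and lowest in split blastocysts and Bax the reverse, while control blastocysts and split morulae differed by less than their SD in both genes. Over the groups, mean TPM ran from 30.6 to 106 for Bok, 27.4 to 52.0 for Bad, 4.18 to 25.1 for Bid, 3.12 to 12.2 for Bcl2l11 and 1.91 to 11.9 for Bcl2l1. Their order changed between groups: Bad was above Bok in 8-cell embryos, and Bcl2l1 was above Bid in both control and split blastocysts. Bak1 and Bik stayed at or below 0.991 and 2.10.

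The summed TPM of the 9 listed members had group means of 430 to 535, and its make-up did not stay the same. The sum was 430 ± 34.7 in control morulae (388 to 474) and 532 ± 14.6 in split morulae as pairs (516 to 543). Single split morulae ran from 429 to 653, and the difference was not tested. Mcl1 gave 53.7% ± 5.78 of the sum in 8-cell embryos (n = 4), 34.4% ± 3.25 in control morulae (n = 5), 28.2% ± 5.02 in control blastocysts (n = 3), 24.6% ± 7.85 in split morulae (n = 3 pairs) and 12.1% ± 3.07 in split blastocysts (n = 3 pairs). The Bax share was 22.1% ± 7.12, 35.8% ± 3.10, 46.2% ± 6.63, 41.6% ± 3.91 and 64.5% ± 1.99 in that order. As pairs, split blastocysts lay below every other group in the Mcl1 share and above every other group in the Bax share. In CPM, 31% of all genes tested did not overlap between split and control blastocysts, and 27.4% between split blastocysts and split morulae. Shares of 1 sum are not independent, since a rise in 1 large share lowers the others. The Bax to Mcl1 ratio of TPM was 0.309, 0.340, 0.340 and 0.718 in the 8-cell embryos, and it ran from 0.894 to 1.2 in the 5 control morulae. Control blastocysts had ratios of 1.17, 1.78 and 2.14. Single split morulae ran from 1.17 to 2.80, and the 6 split blastocysts from 3.97 to 7.19, above all 18 other embryos. Ratios are given as a description with no test, and ratios of other gene pairs were not computed. The 8-cell embryo 1, whose ratio was the highest of its stage, also stood apart in its Bax level.

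**Figure D1:**
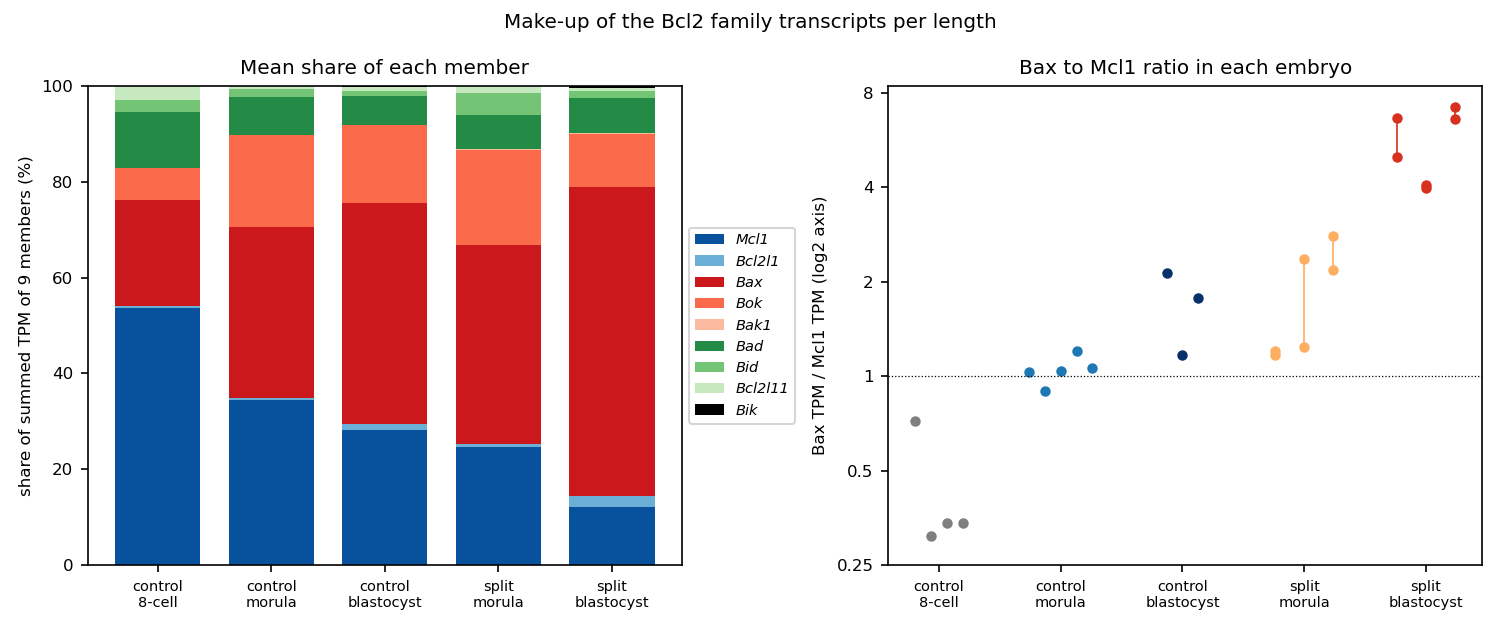
Left, mean share (%, linear axis) of each of 9 members in their summed TPM, with 1 bar per group. Right, Bax TPM divided by Mcl1 TPM on a log2 axis, where each point is 1 embryo and lines join sisters; the 6 split blastocysts lie at 3.97 to 7.19 and the 4 control 8-cell embryos at 0.309 to 0.718.

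The 5 comparisons of groups and the difference between both split effects were tested with edgeR's quasi-likelihood test, adjusted over all 15875 genes. Several comparisons share groups (control morulae serve 3 of them), so their values are not independent of each other. From control 8-cell to control morula, 3 of 9 members passed (Bok up, Mcl1 and Bcl2l11 down), where 24.9% of all genes tested passed, 14.3% up and 10.7% down. From control morula to control blastocyst 1 of 9 passed (Mcl1, down), against 10.6% of all genes, with 7.46% down. None passed between split and control morulae at an adjusted p under 0.05, where 0.126% of all genes did; at an unadjusted p under 0.05 there were 2, Bid and Bak1, against 15% of all genes. DESeq2 also called no member there. Between split and control blastocysts 1 of 9 passed (Bax, up), against 4.74% of all genes, with 3.42% up. From split morula to split blastocyst 1 of 9 passed (Mcl1, down), against 4.17%, with 2.95% down. The shares of members are thus near the background in each case, given that 1 gene of 9 is 1 step. Among the 7 members with reads in every group (all tested but Bak1 and Bik), the median log2 fold change was -0.68, -0.60, 0.33, 0.81 and -0.82 in these comparisons, beside 0.09, 0.08, 0.04, 0.01 and 0.01 over the 12463 such genes. Over all 9 it was -0.25, -0.25, 0.33, 0.84 and 0.05, so the fitted values of Bak1 and Bik, which rest on groups at 0, turned its sign in the last.

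**Figure D2:**
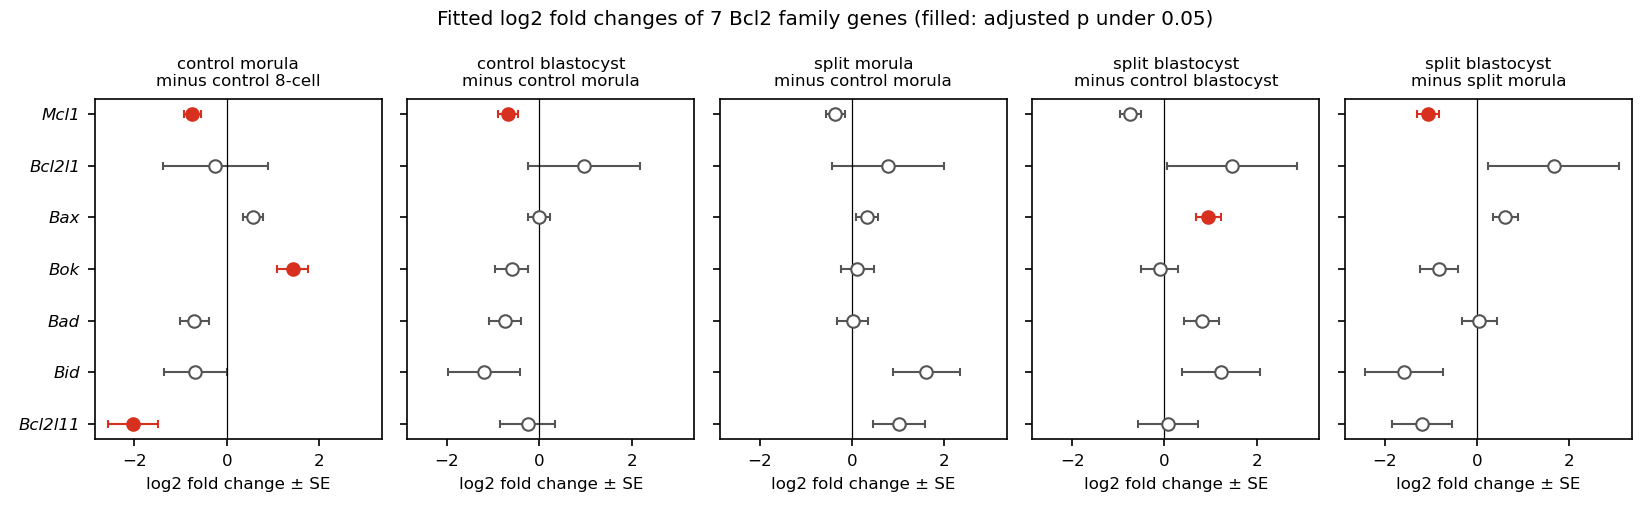
Fitted log2 fold change ± SE of 7 members in 5 comparisons, from 18 values (12 control embryos and 6 pairs); filled points have an adjusted p under 0.05. Mcl1 lies left of 0 in all 5 panels and is filled in 3, and Bax is filled at 0.95 between split and control blastocysts.

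Mcl1, a short-lived guardian against Bax and Bak1, stepped down along development. The 8-cell embryos had 355, 356, 407 and 441 CPM, and the control morulae had 207, 211, 212, 231 and 243 CPM. These groups did not overlap, as for 21.8% of all genes tested. Mcl1 fell by 0.75 ± 0.19 on the log2 scale (SE; adjusted p = 0.00565), a 1.68-fold change that passed under all 17 alternatives. Control blastocysts had 115, 150 and 175 CPM, all below the control morulae, as 24.6% of genes were separated in either direction. Here Mcl1 fell by 0.68 ± 0.21 (adjusted p = 0.0413). That call was lost in 14 of 16 alternatives, among them the removal of any 1 of the 8 embryos (adjusted p = 0.0515 without control blastocyst 3 to 0.219 without control blastocyst 1). On the TPM scale the difference was -0.23 where the median gene stood at 0.37, or -0.60 relative to that median.

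Split morulae had Mcl1 at 192 and 258 CPM in pair 1, 178 and 178 in pair 2, and 131 and 104 in pair 3. The sisters of pair 1 lay on either side of the control range and both other pairs below it, while the summed pair 1 lay within it. The difference from control morulae was -0.36 ± 0.21 (adjusted p = 0.433; 95% interval -0.79 to 0.07). Split blastocysts had 68.1 and 71.8, 117 and 99.1, and 76.0 and 73.0 CPM in pairs 1 to 3. Only the higher sister of pair 2 reached the lowest control blastocyst, and as pairs the groups did not overlap, as for 31% of all genes. The difference from control blastocysts was -0.74 ± 0.23 and missed the threshold (adjusted p = 0.075; interval -1.22 to -0.26). It was called in 6 of 14 alternatives, among them DESeq2 (adjusted p = 0.0104), both TPM scales, and the fit without pair 2 (adjusted p = 0.0457). Against split morulae, split blastocysts were lower with no overlap between pairs, as for 27.4% of genes, and Mcl1 fell by 1.06 ± 0.23 (2.09-fold; adjusted p = 0.00901). This call was lost without split morula pair 1 (adjusted p = 0.0592), without split blastocyst pair 1 (0.0736) or pair 3 (0.0732), and with only these groups in the fit (0.094).

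Bcl2l1, which encodes Bcl-xL, was scarce and scattered at the earlier stages. Its 8-cell embryos had 9.21, 0.0749, 0 and 9.91 CPM, the second from 2 reads and the third from none. Control morulae had 4.2, 3.85, 6.76, 4.37 and 0.114 CPM, and control blastocysts 8.00, 7.71 and 8.43. Embryos with almost no reads thus stood beside embryos with 59 to 305 reads until the blastocyst, where the 3 controls were close together. Split blastocysts had 26.4 and 14.7, 3.16 and 34.6, and 25.1 and 20.8 CPM. Of these, 5 of 6 lay above every control blastocyst and 1 below. The pair means of 20.3 to 22.6 CPM did not overlap the controls, as for 31% of all genes. The fitted difference was 1.47 ± 1.41 (adjusted p = 0.774; interval -1.46 to 4.40), with the gene's spread taken from all 18 values. With only the blastocyst groups in the fit it was 1.40 and passed (adjusted p = 0.025). Between split and control morulae the difference was 0.78 ± 1.22 (adjusted p = 0.889), and between split blastocysts and split morulae it was 1.66 ± 1.42 (adjusted p = 0.58). Among controls it was -0.25 ± 1.14 from 8-cell to morula (adjusted p = 0.916), with the sign turned on the TPM scales, and 0.97 ± 1.22 from morula to blastocyst (adjusted p = 0.702).

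Bcl2 itself, the founding member, was close to absent. It had 1 read in control 8-cell embryo 4 and 3 reads in control blastocyst 3, and none in the other 22 libraries. A count of 3 reads, the floor used here for a count of 0, would be 0.0906 to 0.235 CPM depending on the library.

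**Figure D3:**
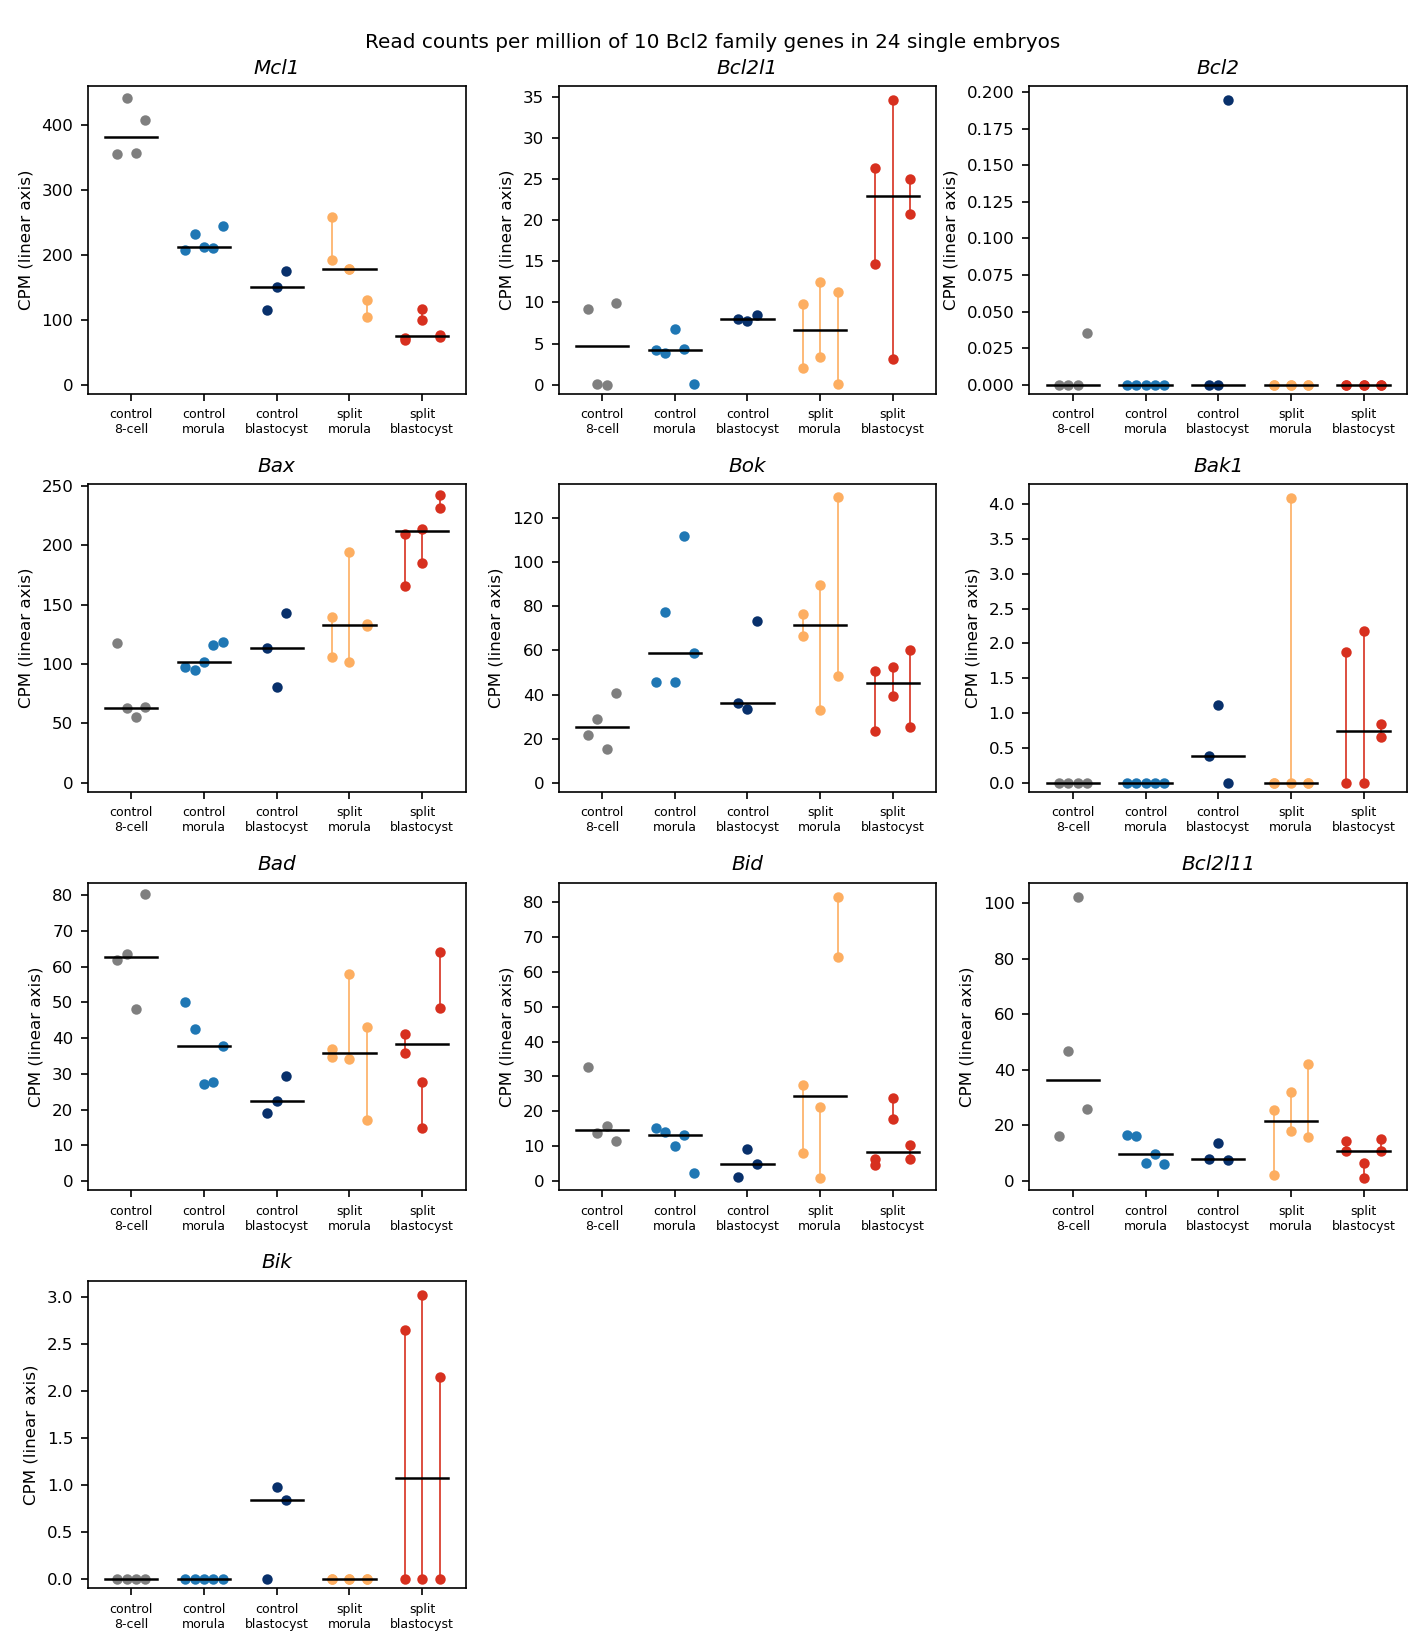
CPM (linear axes, each panel with its own range) of the 10 members, where each point is 1 of 24 embryos, lines join sisters and black bars are group medians over embryos. Mcl1 steps down from 355 to 441 CPM at the 8-cell stage to 68.1 to 117 in split blastocysts, and Bax is highest in split blastocysts at 166 to 242.

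Bax, the effector that moves from the cytosol to mitochondria, was higher in split than in control blastocysts. The control blastocysts had 114, 81.1 and 143 CPM, and the split blastocysts 210 and 166, 214 and 185, and 232 and 242 CPM. All 6 split blastocysts lay above all 3 controls, where 31% of all genes tested did not overlap between these groups as pairs, in either direction. As pairs, their mean of 207 ± 26.6 CPM (SD, n = 3 pairs) compared with 107 ± 28.3 (n = 3). Bax rose by 0.95 ± 0.27 on the log2 scale, or 1.94-fold (adjusted p = 0.0473; interval 0.39 to 1.52). The value stayed between 0.73 and 1.16 in 14 alternatives, but 10 of them lost the call. It was lost without control blastocyst 1 (adjusted p = 0.162) or 2 (0.255), and without split pair 1 (0.0947), 2 (0.0976) or 3 (0.213). It was also lost on the log2(TPM + 1) scale (0.114), where the difference was 0.73 beside a median gene of -0.08.

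Split morulae had Bax at 106 and 140, 102 and 195, and 132 and 134 CPM, beside 97.7, 95.3, 102, 116 and 119 CPM in control morulae. Pair values (123 to 149 CPM) lay above all controls, as for 7.25% of genes in either direction, whereas single embryos overlapped. The difference was 0.33 ± 0.24 (adjusted p = 0.581; interval -0.17 to 0.83). From split morula to split blastocyst it was 0.62 ± 0.27 (adjusted p = 0.214) with no overlap between pairs, as for 27.4% of genes. Control 8-cell embryos had 118, 62.9, 55.9 and 63.7 CPM, and embryo 1 was as high as the highest control morulae. Against them the morulae differed by 0.57 ± 0.23 (adjusted p = 0.0686), and by 0.88 with a call (adjusted p = 0.00299) without embryo 1. It was also called on both TPM scales (adjusted p = 0.023 and 0.0221). From control morula to control blastocyst the difference was 0.00 ± 0.24 (adjusted p = 1; interval -0.51 to 0.50).

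Bok, an effector that is kept low by proteasomal turnover, rose at the morula stage. Its 8-cell embryos had 21.6, 28.9, 15.5 and 40.5 CPM, and control morulae 45.8, 77.6, 45.8, 112 and 59.0. All morulae lay above all 8-cell embryos, where 21.8% of all genes tested did not overlap in either direction. Bok rose by 1.42 ± 0.34, or 2.68-fold (adjusted p = 0.004), a call that held under all 17 alternatives. Control blastocysts had 36.3, 33.5 and 73.3 CPM, which overlapped the morulae (-0.60 ± 0.37; adjusted p = 0.328). Split morulae ran from 32.9 to 130 CPM with a median of 71.4, and split blastocysts from 23.3 to 60.1 with a median of 45.1. Split and control morulae differed by 0.12 ± 0.36 (adjusted p = 0.975; interval -0.63 to 0.86), and split and control blastocysts by -0.11 ± 0.40 (adjusted p = 0.99; interval -0.94 to 0.73). Pairs of split blastocysts lay below pairs of split morulae (-0.82 ± 0.41; adjusted p = 0.256), where 27.4% of genes did not overlap in either direction.

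Bak1, the effector that sits in the mitochondrial membrane, had no read in any 8-cell embryo or control morula. Control blastocysts had 5, 16 and 0 reads. Among split morulae, 5 had none and 1, in pair 2, had 77 reads (4.08 CPM). Split blastocysts had 37 and 0, 31 and 0, and 14 and 23 reads. Reads were thus seen in 2 of 3 control and 4 of 6 split blastocysts. Against the limit set by 3 reads per library in control morulae (0.196 CPM), the mean of control blastocysts was at least 2.46-fold higher, although 1 of them had no read. The mean of split morulae was at least 3.59-fold higher, from that 1 embryo. No comparison called Bak1.

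Bcl2l11, the gene of the BH3-only protein Bim, was highest in 8-cell embryos and uneven among them, at 16.1, 47.0, 102 and 26.0 CPM. Control morulae had 16.6, 16.2, 6.38, 9.71 and 6.17 CPM. The lowest 8-cell embryo overlapped the highest morulae. Bcl2l11 fell by 2.04 ± 0.54, or 4.11-fold (adjusted p = 0.00839). Without 8-cell embryo 3, which had 102 CPM, the value was -1.36 and the call was lost (adjusted p = 0.0857). Control blastocysts had 7.84, 13.8 and 7.72 CPM, a difference from control morulae of -0.25 ± 0.59 (adjusted p = 0.867) whose sign turned on the TPM scales. Split morulae had 2.37 and 25.5, 31.96 and 17.8, and 15.9 and 42.2 CPM, which differed from control morulae by 1.02 ± 0.57 (adjusted p = 0.412; interval -0.17 to 2.21). Of the split morulae, 4 of 6 lay above all 5 controls and 1 below. Split blastocysts ran from 1.12 to 15.1 CPM with a median of 10.8 and differed from controls by 0.08 ± 0.65 (adjusted p = 1), with the sign turned on the TPM scales. From split morulae they differed by -1.19 ± 0.66 (adjusted p = 0.32).

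Bid, which links death receptor signalling to mitochondria once caspase-8 has cut it, set 1 split pair apart. Split morula pair 3 had 64.2 and 81.6 CPM, while pair 1 had 8.02 and 27.4 and pair 2 had 21.2 and 0.886. Control morulae had 15.1, 14.1, 10.03, 13.1 and 2.46 CPM. Both sisters of pair 3 lay above all other 22 embryos, of which the highest was 8-cell embryo 1 at 32.8 CPM. The difference between split and control morulae was 1.62 ± 0.73 (adjusted p = 0.312), and it was 0.36 without pair 3 (adjusted p = 0.983). Control blastocysts had 1.10, 9.26 and 4.86 CPM and split blastocysts 6.22 and 4.68, 23.7 and 17.8, and 6.31 and 10.3. Pair 2 was the highest there, and the groups overlapped (1.23 ± 0.85; adjusted p = 0.566). Bid differed by -0.68 ± 0.68 from control 8-cell to morula (adjusted p = 0.501), by -1.19 ± 0.78 from control morula to blastocyst (adjusted p = 0.37), and by -1.57 ± 0.85 from split morula to split blastocyst (adjusted p = 0.304).

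Bad, whose product is held in the cytosol by 14-3-3 proteins when growth factor kinases are active, had 61.9, 63.5, 48.2 and 80.3 CPM in 8-cell embryos. It had 50.2, 42.4, 27.0, 27.8 and 37.9 CPM in control morulae and 19.0, 22.4 and 29.3 in control blastocysts. Neighbouring stages overlapped, and neither difference passed (-0.70 ± 0.31, adjusted p = 0.0989, and -0.74 ± 0.35, adjusted p = 0.19). Split morulae ran from 17.2 to 57.9 CPM (0.01 ± 0.34 against controls; adjusted p = 1), and split blastocysts from 14.8 to 64.1 (0.81 ± 0.38; adjusted p = 0.321; interval 0.01 to 1.60). Between the split groups the difference was 0.05 ± 0.38 (adjusted p = 0.982), with the sign turned on the TPM scales. Of the split blastocysts, 4 of 6 lay above all controls and 1 below.

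Bik, a BH3-only protein of the endoplasmic reticulum, was seen only at the blastocyst stage among these libraries. It had no read in the 15 libraries of 8-cell embryos and morulae. Control blastocysts had 0, 14 and 13 reads. Split blastocysts had 52 and 0 reads in pair 1, 43 and 0 in pair 2, and 0 and 59 in pair 3. In each pair exactly 1 sister held all the reads (2.65, 3.02 and 2.15 CPM), while 3 reads in the other sister would have been 0.136, 0.168 and 0.14 CPM. Over split morulae, whose limit at 3 reads was 0.0881 CPM as pairs, the mean of split blastocysts was at least 14.3-fold higher. The mean of control blastocysts, 1 of which had no read, was at least 2.95-fold above control morulae. edgeR called neither (adjusted p = 0.155 and 0.0878), while limma on the TPM scales called both.

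Sisters of a pair share a zygote, and the genes differed in how alike they were. The higher sister exceeded the lower by at most 1.35-fold in Mcl1 and 1.91-fold in Bax over the 6 pairs. Bad reached 2.51-fold and Bok 2.73-fold. Bcl2l11 reached 10.8-fold in split morula pair 1 (41 against 364 reads) and Bid 23.9-fold in split morula pair 2 (400 against 16 reads). Bcl2l1 reached 10.9-fold in split blastocyst pair 2 (45 against 620 reads) and had 1 against 195 reads in split morula pair 3. The larger gaps were thus in the genes with lower levels. Smart-seq2 reads carry no molecular identifiers, so how many RNA molecules lie behind such counts is unknown.

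**Figure D4:**
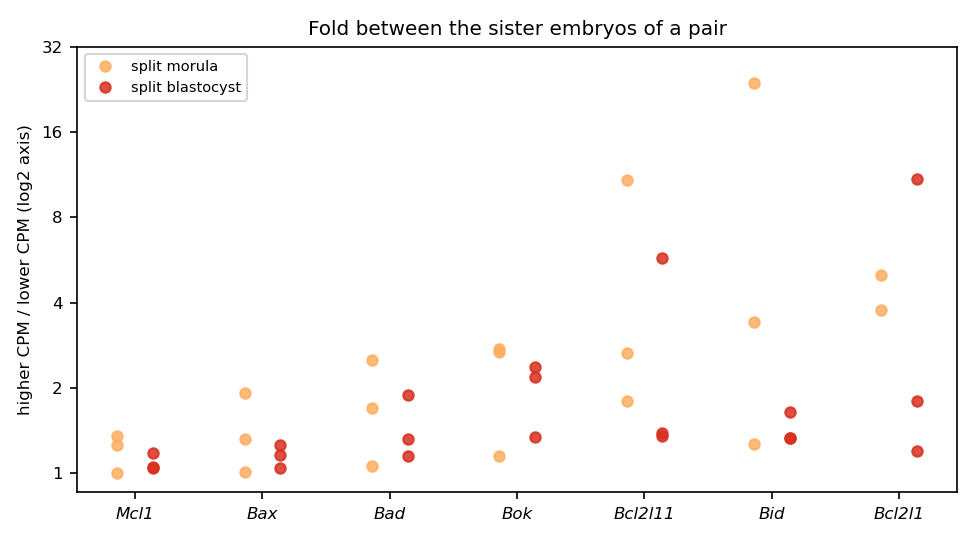
Higher CPM divided by lower CPM between the sisters of each pair (log2 axis), for 7 members in split morulae and split blastocysts, 1 point per pair; split morula pair 3 of Bcl2l1, with 1 against 195 reads, is not drawn. Mcl1 stays at or below 1.35 and Bid reaches 23.9.

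The split effect was also compared between the stages. For Bax it was larger at the blastocyst stage by 0.62 ± 0.37 and for Mcl1 more negative by 0.38 ± 0.31, and neither passed (adjusted p = 0.474 and 0.661). It was 0.69 ± 1.87 for Bcl2l1, -0.22 ± 0.54 for Bok, 0.79 ± 0.51 for Bad, -0.38 ± 1.12 for Bid and -0.94 ± 0.87 for Bcl2l11 (adjusted p = 0.535 to 0.987). No member passed in this test at an adjusted or unadjusted p under 0.05, and DESeq2 called none. Over all genes, 1.64% passed at the adjusted and 14.3% at the unadjusted threshold. The calls for blastocysts are therefore not shown to differ from the values for morulae.

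Of 15 further family genes, 11 were tested. Between control 8-cell embryos and morulae 1 rose and 1 fell: Bnip3, a mitophagy receptor, rose by 0.89 ± 0.25 (adjusted p = 0.013) and Bcl2l13, a mitochondrial relative, fell by 2.40 ± 0.41 (adjusted p = 0.000142). Over all genes 14.3% rose and 10.7% fell there. Toward the control blastocyst 3 of 11 fell and none rose, where 10.6% of all genes passed and 7.46% fell. Bnip3 fell by 2.93 ± 0.31 (adjusted p = 1.28e-06), its sister gene Bnip3l fell by 1.52 ± 0.17 (3.54e-06) and Bcl2l14 fell by 1.07 ± 0.32 (0.0359). None passed between split and control morulae, where 0.126% of all genes did. In split blastocysts Bnip3l was higher than in controls by 0.81 ± 0.18 (adjusted p = 0.0102), the 1 call of 11 beside 4.74% of all genes. Against split morulae Bnip3 (-1.54 ± 0.31; adjusted p = 0.00454) and Bcl2l14 (-1.54 ± 0.36; adjusted p = 0.0127) fell, 2 of 11 beside 4.17% of all genes. The median of the 9 with reads in every group was 0.71, -0.95, 0.54, 0.81 and 0.23 in the 5 comparisons, and that of all 11 was -0.07, -0.95, 0.65, 0.88 and -0.57, so its sign in the first and last rests on Bcl2l10 and Bcl2l15. Of the p53 targets Bbc3 (Puma) and Pmaip1 (Noxa), picked for their role after their values were seen, Bbc3 stayed at or below 88 reads in any library. Pmaip1 ran from 0 to 1754 reads, and no comparison called either.

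Of 31 genes that regulate or bind the family, 29 were tested, and 14 rose and 5 fell from the control 8-cell stage to the morula, beside 14.3% and 10.7% of all genes. The 14-3-3 genes Ywhaz (2.81 ± 0.23; adjusted p = 1.76e-08), Ywhae (1.45 ± 0.15; 3.63e-07) and Ywhaq (0.89 ± 0.14; 6.17e-05) rose, as did Vdac2 (2.19 ± 0.25; 1.26e-06), the porin that holds Bak. Of the other 14-3-3 genes Sfn and Ywhah also rose, Ywhag fell (-0.59 ± 0.21; adjusted p = 0.0424) and Ywhab was not called. The median of the 29 tested genes was 0.39 beside 0.09 for all genes. Toward the control blastocyst 2 rose, Ywhag among them (1.25 ± 0.22; adjusted p = 0.000522), and 6 fell (10.6% of all genes passed), with Ywhaq (-0.92 ± 0.15; 0.000264), Sfn (-2.18 ± 0.38; 0.000511) and Ywhae (-0.87 ± 0.16; 0.000798) leading. None passed between split and control morulae. Between split and control blastocysts 5 rose and 2 fell, beside 4.74% of all genes passing. Ywhaq (0.95 ± 0.17; adjusted p = 0.00147) and Sfn, the epithelial 14-3-3 sigma (2.11 ± 0.40; 0.00293), rose, while Bag1, a Bcl2-binding cochaperone (-1.17 ± 0.23; 0.00353), and Dynll2, the light chain that tethers Bmf (-1.36 ± 0.30; 0.00895), fell. From split morula to split blastocyst 1 of 29 fell, Dynll2 (-1.11 ± 0.30; adjusted p = 0.038), beside 4.17% of all genes. The split effect differed between stages for 3 of the 29, beside 1.64% of all genes: Ywhaq (1.23 ± 0.23; adjusted p = 0.0069), Vdac3 (1.44 ± 0.29; 0.0124) and Mtch2, the mitochondrial receptor of cut Bid (1.14 ± 0.26; 0.0287).

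Of 16 genes that act after the mitochondrial step, all were tested. From the 8-cell stage to the morula Birc5 (Survivin) rose by 0.57 ± 0.17 (adjusted p = 0.0182), while the caspase inhibitor Xiap fell by 1.51 ± 0.40 (0.0078) and the apoptosome scaffold Apaf1 fell by 4.36 ± 1.27 (0.0169), 3 of 16 beside 24.9% of all genes. None of the 16 passed in any other comparison by this test, and caspase genes were among those not called.

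Genes with the most similar profile over the 18 values were sought among 6338 genes of at least moderate level. Mcl1 ran most like Hnrnpab (Pearson's r = 0.955) and Nap1l1 (0.949), and Bax most like Ino80e (0.927) and Cldn4 (0.924). Bok ran most like C1qtnf12 (0.852) and Snx4 (0.827), and Bcl2l11 most like Nup107 (0.874) and Rpap3 (0.835). Among the members, Mcl1 and Bax had r = -0.789. These are the highest of many correlations over 5 groups that differ in stage, depth and library make-up, and they carry no test.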

How the data were processed

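Polyadenylated RNA of 24 single embryos was sequenced with Smart-seq2, per the labels' protocols. The submitters' processing notes name cutadapt, HISAT2, featureCounts and edgeR, along with FastQC and MultiQC, and the build GRCm39; they give no versions. The authors deposited raw read counts per gene symbol (37229 genes), used here as deposited, and a table of TPM (15625 genes, each with at least 10 counts in at least 3 libraries when set against the counts). Annotation release, strand setting and the treatment of reads with several matches are not given in the sources used here, so counts of overlapping transcripts are uncertain.

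Counts of the 2 sisters of a pair were summed (18 values, 5 groups, 13 residual degrees of freedom), since sisters are not independent. Genes passing filterByExpr were TMM-scaled and put to the robust quasi-likelihood test of edgeR 4.0.16 in R 4.3.3, with Benjamini-Hochberg adjustment over 15875 genes and a threshold of 0.05. SE is the fold change divided by the square root of F, and intervals are 95%. CPM are counts over the scaled library size, for single embryos from 24 libraries and for pairs from the 18 values. The alternatives were DESeq2 1.42.0, its size factors in edgeR, no filter on low counts, limma 3.58.1 on log2(TPM + 1) and log2(TPM + 0.1), each split embryo as its own sample, the compared groups alone, a replicate block, and leaving out each embryo or pair. A pseudocount shrinks the ratio of 2 low TPM values, the larger pseudocount more.

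On simulated counts for split against control blastocysts over 15875 genes, the test recovered 24.5% of genes changed 4-fold and 4.44% of those changed 2-fold. Changed genes that failed the low-count filter in the simulated counts were left out of these shares. In the simulation 100 genes were changed by each fold before that filter, and the groups were otherwise alike. There 28 genes were called, where the data gave 752. The adjusted threshold was thus harder to reach than in the data, so these shares do not measure recovery there. All 10 members are named; fitted changes of Bak1 and Bik, which rest on groups at 0, are not printed. From the other lists, called genes are named up to 4 per list and comparison, by smallest adjusted p. Genes of similar profile were ranked by the Pearson correlation over log2 CPM (with 2 as prior count) among genes whose average log2 CPM reached 3. Members, lists and tests were chosen with earlier results of these data known. The labels name no litter, batch or sex, and p-values reflect only how far these embryos spread. Intervals of fold changes include the spread between embryos, and limits from 3 reads cover counting error only.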

Additional observations from a re-analysis of the deposited data

Results flagged for a closer look

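In groups of 4 to 6 embryos, 32 sets of CPM values were checked for an embryo far from the others, and 3 were found. Control blastocysts, with 3 embryos, were not checked. The cut-offs flag about 1 in 20 sets of independent, normally spread values, which sets with sisters or many values of 0 are not. A set with reads in only 1 embryo is always flagged, as were those of Bak1 and Bcl2. Control 8-cell embryo 1 had Bax at 117.6 CPM, with its nearest neighbour at 63.74. Split morula pair 2, blastomere 1, had Bak1 at 4.081 CPM where the other 5 split morulae had no read. Control 8-cell embryo 4 had Bcl2 at 0.03539 CPM, which is 1 read, where the other 3 had none.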

How the results depend on the processing

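Over 42 member results and 693 alternative values, 612 kept direction and side of the threshold, 40 turned direction (all for differences that were not called), 30 lost and 11 gained a call; the causes were not tested. Mcl1 and Bok from the control 8-cell embryo to the morula kept their calls under all 17 alternatives. Deviations of same-numbered samples correlated at -0.0333 to 0.0849, none above 0.1, and others at -0.11 to 0.0452. Not every sample correlated best with its own number. Between split morulae and split blastocysts, however, same-numbered pairs correlated at 0.0208 to 0.0365 and others at -0.0328 to 0.00879. Such low values cannot decide whether replicate numbers pair the samples, and the main fit used no such pairing. Values below with no other name are log2 differences.

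Members called from control 8-cell to morula numbered 3, and 4 on both TPM scales (with Bax), 2 with the replicate block (without Bcl2l11, -1.69, adjusted p = 0.0643) and 2 to 4 leaving one out. From control morula to blastocyst they numbered 1, and 0 with DESeq2's size factors in edgeR, with no filter, with split embryos as own samples, with the replicate block and without any 1 embryo (0 to 0); on both TPM scales the 1 called was Bik, not Mcl1. Between split and control blastocysts 1 was called, 0 with size factors, no filter or the block, 2 with DESeq2 or own samples, 3 with the compared groups alone, and 0 to 1 leaving one out. The gene called there was not always Bax. On log2(TPM + 1) and without split pair 2, Mcl1 was called and Bax was not. From split morula to split blastocyst the number called was 1, then 2 on both TPM scales, 3 with own samples, 0 with the compared groups alone, and 0 to 1 leaving one out.

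Genes called from control morula to blastocyst were 1680, and 2572 (DESeq2), 3520 and 2786 (TPM + 1 and + 0.1), or 1083 to 1524 leaving one out. For split against control morulae they were 20, and 676, 39 and 32 in that order, 69 (no filter), 191 (own samples), 4 (compared groups), and 4 to 51. For split against control blastocysts they were 752, and 1407 (DESeq2), 2037 (compared groups) and 408 to 552. From split morula to split blastocyst they were 662, and 1697 (DESeq2), 1380 and 1143 (TPM), 2205 (own samples), 413 (compared groups) and 292 to 632. For the difference of split effects they were 260, and 874 (DESeq2), 114 and 72 (TPM), 391 (own samples), 392 (compared groups), 169 (replicate block) and 108 to 225. The share of calls that were higher was 29.5% from control morula to blastocyst and 76.2% on log2(TPM + 1); 29.3% and 62.2% from split morula to split blastocyst; 72.2% and 45.5% for split against control blastocysts; 55% and 76.9% for the morulae; and 83.8% and 39.5% for the difference of split effects.

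Turned directions: Bcl2l1 from 8-cell to morula was 0.169 and 0.949 on the TPM scales, 0.73 with the replicate block and -0.666 to 0.359 leaving one out. Bax from control morula to blastocyst was 0.0804 (size factors), 0.0805 (DESeq2), 0.0148 (no filter), 0.428 and 0.43 (TPM), 0.0864 (own samples), 0.0205 (block) and -0.206 to 0.177. Bcl2l11 was 0.196 and 0.27 there (TPM), and between split and control blastocysts -0.197 and -0.296 (TPM) and -0.148 to 0.457. Bad was -0.00107 (size factors), -0.00127 (DESeq2) and -0.169 to 0.151 between split and control morulae, and -0.0267 and -0.0298 (TPM) and -0.328 to 0.341 from split morula to split blastocyst. Leaving one out gave Bok -0.0409 to 0.365 between the morulae, -0.295 to 0.337 between the blastocysts and -0.472 to 0.221 for the difference of split effects. For that difference Bcl2l1 was -0.268 (TPM + 0.1) and Bid 0.148 (replicate block) and -1.08 to 0.874. Levels of Bcl2, Bak1 and Bik rest on at most 77 reads in any library.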
